A study of Mus musculus with 5 samples.

Results

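Papillary-type dermal fibroblasts were followed in wounded and un-wounded mouse skin as a class of 571 cells among 26845 kept cell barcodes (2.13%). The class was defined by RNA content. A barcode needed at least 200 genes and at most 10% mitochondrial counts of unique molecular identifiers (UMIs), and at least 50 UMIs of Col1a1, Col1a2 and Col3a1 together per 10000. It needed fewer than 50 of Krt5 and Krt14 per 10000, fewer than 3 UMIs of Rgs5, fewer than 5 of Cthrc1 per 10000 and fewer than 5 of Cxcl13 and Thbs4 per 10000. Of these 6737 gated fibroblasts, the members held at least 1 UMI in at least 2 of the genes Apcdd1, Col23a1, Crabp1 and Axin2, and the other 6166 gated fibroblasts held UMIs in fewer. Cells were taken from C57BL/6 mice by a sort for live cells and captured with 10x Genomics 3' v1 chemistry. Wounded skin (n = 3 libraries) had received a 6-mm punch at 7 weeks of age and was collected as a 10-mm disc 4 days later. Un-wounded skin (n = 2 libraries) carried no wound, and no age is given for it. Whether the libraries came from different mice is not given in the labels, so p-values measure only the spread between these libraries, which may be technical. The members numbered 97, 67 and 155 in wounded libraries 1, 2 and 3 and 24 and 228 in un-wounded libraries 1 and 2. Their summed UMIs were 879085, 632658 and 1864417 in wounded and 134281 and 2018773 in un-wounded libraries, so un-wounded library 1 contributed little depth. No member's barcode sequence was shared between libraries.

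Papillary fibroblasts lie in the upper dermis beneath the epidermis, and are described as responsive to epidermal WNT ligands and as the source of the hair follicle's dermal papilla during development. Fibroblasts of the reticular dermis and the fascia below build coarse collagen bundles and are known as early contributors to wound repair. Axin2 and Apcdd1 encode WNT inhibitors that are themselves WNT targets. Crabp1 encodes a cytosolic protein that binds retinoic acid, and Col23a1 encodes a transmembrane collagen. A level is given as CPM, the UMIs of a gene scaled to 1000000 UMIs summed over the cells of a class in a library. Since 3' counts are not scaled by transcript length, levels are compared between samples and not between genes.

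The upstream windows of the genes that chose the cells are shown because membership rests on their transcription. They are the 250 bases before the start of each gene on the plus strand (RefSeq, GRCm38.p6), at chr11:108920099-108920348 for Axin2, chr9:54764498-54764747 for Crabp1 and chr11:51289670-51289919 for Col23a1. Capitals mark matches to 3 motifs searched on both strands, CTTTGAT and CTTTGTT of TCF/LEF factors, which carry the WNT signal to DNA, and AGGTCA, the half-site of retinoid receptors. No motif overlapped another.
Axin2: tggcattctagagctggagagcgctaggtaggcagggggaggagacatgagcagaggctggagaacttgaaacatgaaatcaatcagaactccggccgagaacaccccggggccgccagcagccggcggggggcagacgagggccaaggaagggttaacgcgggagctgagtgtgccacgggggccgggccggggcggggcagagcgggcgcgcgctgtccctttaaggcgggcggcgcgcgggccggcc
Crabp1: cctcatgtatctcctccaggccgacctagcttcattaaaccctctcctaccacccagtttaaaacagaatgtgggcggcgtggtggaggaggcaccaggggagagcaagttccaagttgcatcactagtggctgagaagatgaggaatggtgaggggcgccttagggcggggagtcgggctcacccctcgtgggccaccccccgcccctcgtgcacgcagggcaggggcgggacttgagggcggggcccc
Col23a1: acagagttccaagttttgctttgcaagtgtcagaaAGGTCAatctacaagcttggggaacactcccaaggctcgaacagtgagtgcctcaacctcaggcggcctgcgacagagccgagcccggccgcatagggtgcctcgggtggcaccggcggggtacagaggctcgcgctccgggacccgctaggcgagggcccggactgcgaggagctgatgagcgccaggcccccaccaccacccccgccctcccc
Among the windows shown, the single match was AGGTCA in Col23a1, at position -215 relative to the start. Of 32851 promoter windows of the same length, 14% hold AGGTCA, 3.2% CTTTGAT and 5.0% CTTTGTT. The windows were 69.2% (Axin2), 63.6% (Crabp1) and 66.0% (Col23a1) G or C, against a median of 52.4% over all windows. No expression value here bears on a site in them.

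On GRCm38, Crabp1 lies at chr9:54764748-54773110, Col23a1 at chr11:51289920-51583918, Axin2 at chr11:108920349-108950783 and Apcdd1 at chr18:62922231-62961179, all protein-coding genes on the plus strand. Crabp1 carried most of the class. It was detected in 493 members (86.3%), Axin2 in 325 (56.9%), Col23a1 in 319 (55.9%) and Apcdd1 in 102 (17.9%). The commonest pairs were Col23a1 with Crabp1 (197 members, 34.5%) and Crabp1 with Axin2 (175, 30.6%), and all 4 genes were found together in 6 cells. Just inside the rule, 480 members held exactly 2 of the genes. Just outside it, 1693 gated fibroblasts held 1, and 4473 held none. These values follow from the rule and were not tested. Leukocyte barcodes, which should lack the genes, held at least 2 of them in 0 of 264, 0 of 1037 and 1 of 513 wounded and in 0 of 69 and 3 of 181 un-wounded cases. Counts of 0 allow shares of up to 1.14, 0.289 and 4.35%, and the other shares were 0.195 and 1.66%, at median depths of 6447, 7030 and 7756 UMIs in wounded and 2123 and 4776 UMIs in un-wounded leukocyte barcodes.

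Crabp1 was at 2084, 787 and 1518 CPM in wounded members and at 141 and 501 CPM in un-wounded members. The groups did not overlap. A few cells held much of it, since 1 member of wounded library 1 had 306 UMIs and the 2 highest cells of wounded library 2 held 49.8% of that library's Crabp1. At least 10 UMIs of Crabp1 were found in 26 of 97, 7 of 67 and 66 of 155 wounded members, and in 0 of 24 and 29 of 228 un-wounded members. Axin2 was at 71.7, 88.5 and 41.3 CPM in wounded and at 171 and 90.2 CPM in un-wounded members, and Apcdd1 at 21.6, 17.4 and 8.05 CPM against 44.7 and 27.7 CPM, in both cases lower in every wounded library. Col23a1, at 141, 75.9 and 138 CPM in wounded and 119 and 82.7 CPM in un-wounded members, overlapped between groups. Since the rule used these genes, their differences between groups are given as values without a test.

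**Figure D1:**
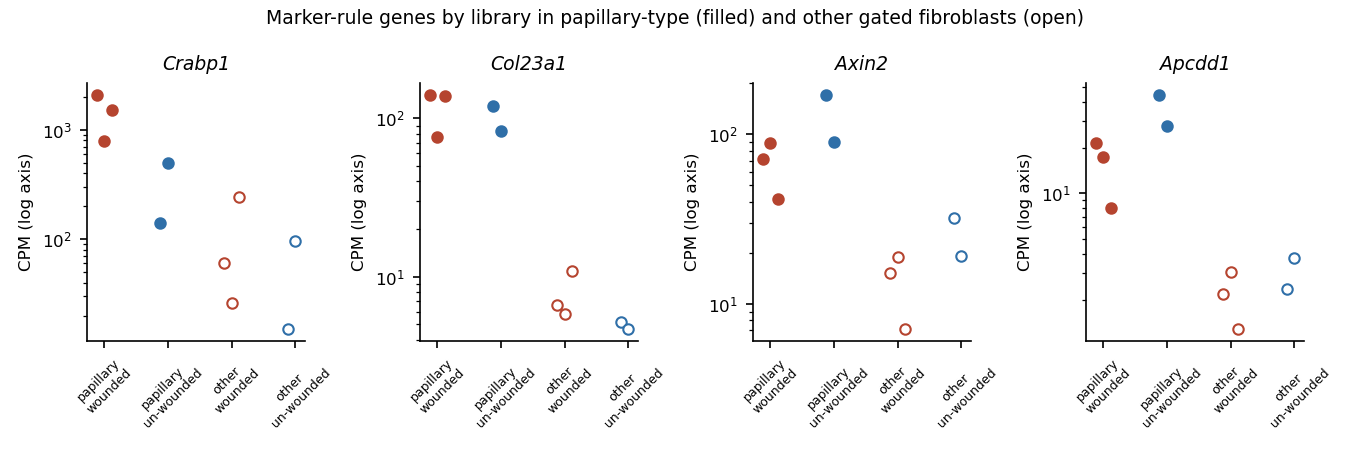
CPM of the genes of the marker rule (log axis) in papillary-type fibroblasts (filled points) and other gated fibroblasts (open points), 1 point per library, wounded in red and un-wounded in blue. Crabp1 of wounded members lies between 787 and 2084 CPM, above the 141 and 501 CPM of un-wounded members.

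The label was checked against markers of fibroblasts, of the upper dermis and of the hair follicle's dermal cells, and several of them were near 0. Dcn, a proteoglycan of fibroblasts, was at 14235 to 18204 CPM in wounded and 21158 to 34108 CPM in un-wounded members. Pdgfra, the PDGF receptor of dermal fibroblasts, was at 137, 158 and 180 CPM in wounded and 141 and 118 CPM in un-wounded members. Lef1, a WNT effector often used to mark papillary cells, was at 0 in all libraries except un-wounded library 2, where 1 UMI gave 0.495 CPM. Corin and Sox2, which mark the dermal papilla, reached at most 1.58 CPM in any library. The summed level of the 16 genes of the dermal papilla list was nevertheless higher in members, at 325, 256 and 323 CPM in wounded members against 235, 204 and 269 CPM in other gated fibroblasts, and at 223 and 337 CPM against 183 and 217 CPM in un-wounded libraries. In members, 2 to 10 of the 16 genes were at 0 in a given library. Of its 3 genes at 50 CPM or more in either class, Vcan was higher and Fgf7 lower in members of all 5 libraries. The median log2 ratio of members over other gated fibroblasts was 0.09 for these 3 genes, against 0.06 over all 2555 such genes. Cells were also thinned to 2000 UMIs each. UMIs of at least 2 of the 16 genes were then found in 12.4, 4.48 and 9.68% of wounded members. In other gated fibroblasts of those libraries the shares were 6.16, 4.39 and 7.01%. In un-wounded libraries they were 8.70 and 11.0% in members against 4.90 and 5.05%. The 4.48% of wounded library 2 was 3 of 67 cells and the 8.70% of un-wounded library 1 was 2 of 23. The summed level of the 10 genes of the dermal sheath list was also higher in members of all 5 libraries, at 1158, 1061 and 1217 CPM against 862, 776 and 998.7 CPM in wounded and at 976 and 862 CPM against 663 and 617 CPM in un-wounded libraries. At 2000 UMIs per cell, at least 2 of these 10 genes were found in 38.1, 32.8 and 42.6% of wounded members. Other gated fibroblasts of those libraries had shares of 28.1, 27.3 and 28.8%. Un-wounded shares were 47.8 and 31.3% in members against 27.0 and 23.3%, so members were higher in all 5 libraries. Whether the members include cells of the hair follicle was not tested. Since the rule used WNT targets, WNT-linked genes do not test the label and are given as values. Rspo1, a secreted enhancer of WNT signalling, was at 177, 138 and 112 CPM in wounded members against 135, 105 and 86.8 CPM in other gated fibroblasts of the same libraries. In un-wounded skin it was at 424 and 249 CPM in members against 278 and 156 CPM in other gated fibroblasts. Nkd2, a WNT feedback inhibitor, was likewise higher in members of all 5 libraries, at 73.9, 68.0 and 62.8 CPM in wounded and 141 and 76.3 CPM in un-wounded members, against 41.7, 31.9 and 35.2 CPM and 56.1 and 30.6 CPM in other gated fibroblasts.

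Comparing members with other gated fibroblasts repeats the choice of cells, so it is a description. At 50 CPM or more in either class, 498 of 2555 genes (19.5%) were higher and 231 (9.04%) lower in members of all 5 libraries. In the list of WNT targets, ligands and inhibitors, 6 of 11 such genes were higher and 0 lower, with a median log2 ratio of 0.46 against 0.06 over all 2555 genes. They were Twist2, Rspo1, Nkd1, Wnt5a, Nkd2 and Wisp1. In the papillary list, 4 of 8 were higher and 0 lower (Rspo1, Nkd1, Nkd2 and Tcf4). In the reticular and lower dermis list, 2 of 8 were higher (Cdh13 and Meox2) and 3 lower (Mgp, Cilp and Gpx3), with a median log2 ratio of -0.36. In the fascia and universal fibroblast list, 0 of 10 were higher and 7 lower, among them Cd34 and Pi16, and in the complement list 0 of 7 were higher and 6 lower, among them C3 and C4b. Median log2 ratios of the fascia and complement lists were -0.70 and -1.16.

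Of the genes highest in members relative to other gated fibroblasts, F13a1, a transglutaminase subunit that cross-links fibrin, had a mean log2 ratio of 2.66 over 5 libraries, with 162 CPM in members and 16.1 CPM in other gated fibroblasts. Tnc, the matrix glycoprotein tenascin C, had a ratio of 2.21, which ranged from 0.87 in un-wounded library 2 to 3.63 in wounded library 1. Col7a1, the anchoring fibril collagen that ties dermis to epidermis, had 79.8 against 19.6 CPM (1.53), and Igfbp2, a binding protein of insulin-like growth factors, 3206 against 1032 CPM (1.69). Stc1, Mme, Kcnk2, Gldn, Ass1 and Rarres1 had mean ratios between 1.67 and 1.95. At the other end stood Gpx3, a secreted glutathione peroxidase, with 326 CPM in members against 1285 CPM (-2.39), Mgp, an inhibitor of calcification of the lower dermis, with 63.8 against 338 CPM (-1.96), and complement C3, with 76.0 against 313 CPM (-1.91). Ifi205, Gas6, Ogn, Itm2a, Lbp, Cygb and C4b had mean ratios between -1.91 and -1.71. Members were deeper than other gated fibroblasts, with medians of 7867, 7837 and 10158 against 6147, 6345 and 7643 UMIs in wounded and 6353.5 and 8639 against 4954 and 6799 UMIs in un-wounded libraries. With every cell thinned to 2000 UMIs, the named genes kept their direction in all libraries. In un-wounded library 1, however, Mgp, Ifi205, Itm2a, Cygb and C4b were at 0 in members at full depth, where only a negative ratio was possible. Other gated fibroblasts of that library held just 5.61, 11.7 and 13.1 CPM of Mgp, Cygb and C4b.

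Members differed among themselves by which marker genes they held. These splits were made after the data were seen, and they are described without a test. Members with Col23a1 and Crabp1 but neither other marker were set against members with Axin2 and Crabp1 but neither other marker, in the 4 libraries with at least 15 cells of each. The same sign in all 4 was found for 671 of 2658 genes at 50 CPM or more. Spp1, the matrix protein osteopontin, was at 1507, 720 and 642 CPM in Col23a1 cells against 17.4, 34.2 and 9.97 CPM in Axin2 cells of wounded libraries, and at 18.9 against 0 CPM in un-wounded library 2. Over all wounded members, the top 2 cells per library together held 76.8% of the Spp1 UMIs, so few cells may carry this difference. Inhba, a subunit of the TGF-beta relative activin A, was at 141, 180 and 254 CPM against 13.1, 29.4 and 13.3 CPM in wounded libraries, and at 54.8 against 12.3 CPM in un-wounded library 2. Clec3b, which encodes tetranectin, ran the other way, at 356, 144 and 86.6 CPM in Col23a1 cells against 998, 1526 and 751 CPM in Axin2 cells of wounded libraries, and at 1873 against 2439 CPM in un-wounded library 2. Sfrp2, Tpm2, Cxcl1, Col12a1 and Plk2 were also higher, and Cldn10, Scara5, Serpina3c, Cyp2f2, Deptor and Adgrd1 lower, in Col23a1 cells of all 4 libraries. Col23a1 cells were deeper in each, with medians of 9477, 9473, 11356 and 9005 UMIs against 7207.5, 8018, 9137 and 8311 UMIs in Axin2 cells.

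Members with at least 10 UMIs of Crabp1 were set against members with fewer in the 3 libraries with at least 15 cells of each. These were wounded 1, wounded 3 and un-wounded 2. The same sign in all 3 was found for 1124 genes at 50 CPM or more, Crabp1 among them. Mitochondrial, ribosomal protein, Gm-number and Rik genes were again left out of that count but not of the 2732 genes at that level. Crabp1-rich cells were deeper in wounded libraries 1 and 3, with medians of 11172 and 11596 UMIs against 6824 and 9684 UMIs, and shallower in un-wounded library 2, with 8216 against 8722 UMIs. Tnc was at 1399 and 953 CPM in Crabp1-rich cells against 140 and 503 CPM in the rest of wounded members, and at 46.4 against 6.74 CPM in un-wounded library 2. Cyp2f2, a cytochrome P450, was at 11.2 and 47.3 against 199 and 146 CPM in wounded libraries, and at 8.44 against 459 CPM in un-wounded library 2. Gas6, a ligand of TAM receptors, was lower in the Crabp1-rich cells too, at 81.5 and 63.4 against 470.3 and 336 CPM in wounded libraries and 156 against 692 CPM in un-wounded library 2.

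The share of papillary-type cells differed more between libraries than between groups. They made up 5.92% (exact Clopper-Pearson 95% interval 4.83 to 7.18), 4.09% (3.18 to 5.16) and 16.2% (13.96 to 18.7) of gated fibroblasts in wounded libraries, and 5.26% (3.40 to 7.73) and 11.1% (9.80 to 12.6) in un-wounded libraries. The means were 8.75 ± 6.56% in wounded (SD, n = 3) and 8.20 ± 4.15% in un-wounded skin (SD, n = 2), and the exact two-sided permutation p was 0.9, where 10 assignments of libraries allow no p under 0.1. Of all kept barcodes they were 1.29, 1.47 and 3.76% in wounded and 0.456 and 4.24% in un-wounded libraries (exact permutation p = 1). Before the limits on Cthrc1 and on Cxcl13 and Thbs4, fibroblasts numbered 2293, 1925 and 1370 in wounded and 459 and 2066 in un-wounded libraries. These limits removed cells mainly from wounded libraries. Members, still chosen with both limits, were 4.23, 3.48 and 11.3% of them in wounded and 5.23 and 11.0% in un-wounded libraries. Those means were 6.34 ± 4.32% and 8.13 ± 4.11% (SD, exact permutation p = 0.6). Intervals cover counting error only. Because membership needs single UMIs, it was counted again after thinning each cell to 2000 UMIs, which left 1638, 1640 and 954 wounded and 431 and 2030 un-wounded gated fibroblasts. The shares were then 1.10, 0.610 and 3.88% in wounded and 1.39 and 2.36% in un-wounded libraries, with means of 1.86 ± 1.76% and 1.88 ± 0.688% (SD, exact permutation p = 1). Among gated fibroblasts, thinned or not, wounded library 3 was highest and wounded library 2 lowest. Of kept barcodes un-wounded library 2 was highest and un-wounded library 1 lowest, and in all these readings the groups overlapped. The difference in share of gated fibroblasts changed sign when single libraries were left out, between -3.19 and 3.49 percentage points.

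**Figure D2:**
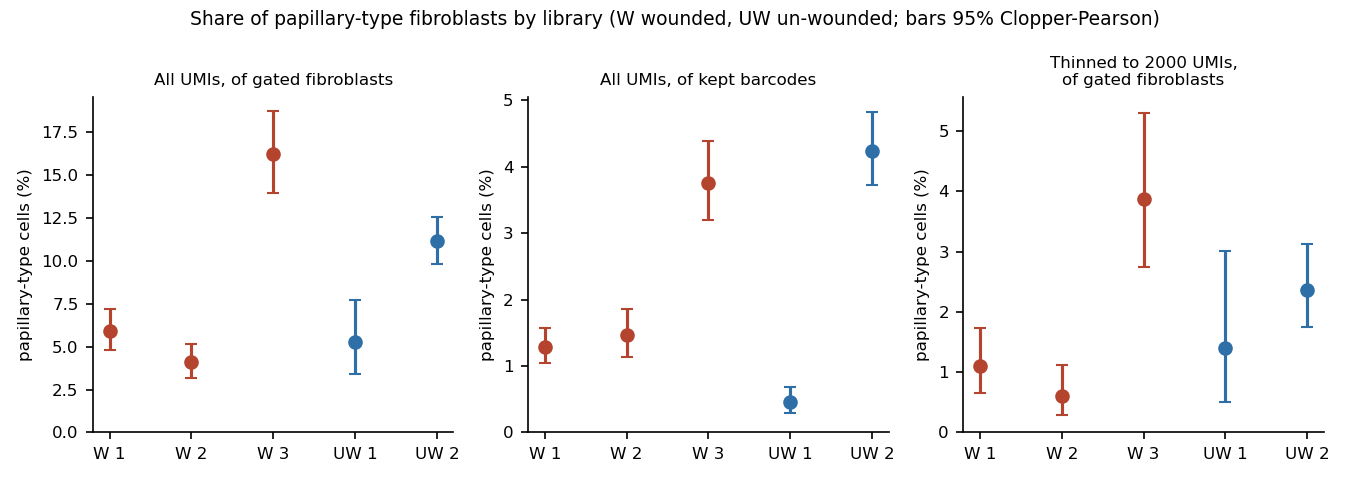
Papillary-type cells as a percentage of gated fibroblasts, of kept barcodes, and of gated fibroblasts after thinning to 2000 UMIs, by library (W wounded, UW un-wounded), with exact 95% intervals. Wounded library 3 (16.2% of gated fibroblasts) and un-wounded library 2 (11.1%) stand above the remaining libraries.

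Wounded papillary-type fibroblasts differed from un-wounded ones in 180 of 7305 genes tested (2.46%) by edgeR's quasi-likelihood test on UMIs summed per library, at a Benjamini-Hochberg adjusted p under 0.05. In wounded members 148 genes (2.03%) were higher and 32 (0.438%) lower, and the libraries of the groups did not overlap in 2339 genes (32% of those tested). Of the 148 rises 13 were in the list of chemokine, cytokine and acute phase genes, 10 in that of wound matrix genes and 7 in that of cell cycle genes, and most were in none of these. Scg3, Clec3b and Cd34 were among the falls. Un-wounded library 2 held most of the un-wounded depth. When it was left out, a single un-wounded library of 24 members remained and the test called 10 genes. All 179 of the called genes that were still tested kept their direction, and 919 genes had an unadjusted p under 0.05, against 1053 in all libraries. The number called was 171 without un-wounded library 1, 459 without wounded library 1, 156 without wounded library 2 and 85 without wounded library 3. Barcodes with any UMI of Ptprc, Tyrobp, Fcer1g, Cd68, C1qa or Cd3e, genes of leukocytes, made up 24.7, 68.7 and 57.4% of wounded and 4.2 and 13.6% of un-wounded members. With these barcodes left out 380 members remained and 32 genes were called, 31 of them among the 145 of the 180 that were still tested, and all 145 kept their direction. That alternative was chosen after the data were seen.

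Inflammatory genes gave more rises in number than any other list, though not the largest share of genes tested. The share that rose was 43.3%, against 75.0% of leukocyte, 66.7% of adipocyte and 53.8% of cell cycle genes tested. Only 3 adipocyte genes were tested, and over all genes 2.03% rose. Of 37 listed chemokine, cytokine and acute phase genes, 30 passed the filter on low counts, 13 rose and 0 fell, with a median log2 fold change of 1.56 against -0.003 over all genes tested. Saa3 (chr7:46711998-46715700, minus strand), an acute phase protein, was at 2972, 438 and 2234 CPM in wounded members and had 0 UMIs in both un-wounded libraries. Pooled over wounded libraries (2090 CPM), that is at least 1499.9-fold higher, taking 3 counts over the un-wounded group as the limit (adjusted p = 0.000747). Limits of this kind, here and below, cover counting in un-wounded members and not the spread between wounded libraries. Cxcl5 (chr5:90759360-90761624), a neutrophil chemokine, was at 160.4, 199 and 560.5 CPM in wounded members and also at 0 in un-wounded ones (at least 279-fold, adjusted p = 0.00119). In both genes every wounded library stood apart from the un-wounded libraries, which the rule for naming genes required.

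Ccl8 (chr11:82115185-82116799), a monocyte chemokine, was at 1142, 545 and 1575 CPM in wounded and at 22.3 and 37.2 CPM in un-wounded members (log2 fold change 5.10 ± 0.54 SE, adjusted p = 0.000574). Cxcl2 was at 355, 909 and 874 CPM in wounded against 0 and 16.3 CPM in un-wounded members (5.76 ± 0.64, adjusted p = 0.000739), while wounded barcodes that failed the collagen gate held 3878 CPM, above the members' mean of 712.5 CPM. Cxcl1, its close relative, rose too (4.44, adjusted p = 0.0014), as did Cxcl12, the ligand of Cxcr4 (4.29, adjusted p = 0.00583). Ccl2 rose with a smaller fold (2.14, adjusted p = 0.00636) to 1856, 1424 and 1857 CPM in wounded members, against 544 and 318 CPM in un-wounded members. Ptgs2, the inducible cyclooxygenase of prostaglandin synthesis, was at 69.4, 223 and 171 CPM in wounded and 7.45 and 2.97 CPM in un-wounded members (5.58 ± 0.71, adjusted p = 0.0014). Il1rl1, the receptor of interleukin 33, was at 21.6, 90.1 and 77.8 CPM in wounded members and 0 in un-wounded members (at least 47.0-fold, adjusted p = 0.00577). Slpi, a protease inhibitor, was at 142, 264 and 254 CPM in wounded members, with 1 UMI in all un-wounded members (8.66 ± 0.71, adjusted p = 6.99e-05). Wounded barcodes that failed the collagen gate held 386 CPM of Ptgs2 and 457 CPM of Slpi, above the members' means of 154 and 220 CPM. Ereg, an EGF receptor ligand, was at 9.10, 153 and 64.4 CPM in wounded and at 0 and 0.991 CPM in un-wounded members (6.24 ± 1.37, adjusted p = 0.0339), and its call was lost without wounded library 2. A few cells carried several of these rises. The top 2 cells per wounded library together held 64.0% of the wounded UMIs of Ereg, 49.8% of those of Il1rl1, 45.6% of those of Saa3 and 15.4% of those of Ccl8. Nfkbia and Tnfaip6, abundant members of the list, had log2 fold changes of 1.07 and 0.71 (adjusted p = 0.0802 and 0.373). When barcodes with leukocyte UMIs were left out, 6 of 27 listed genes were called higher (Ccl8, Cxcl2, Cxcl5, Cxcl12, Saa3 and Ptgs2). Leaving out un-wounded library 2 gave 3 calls of 33 tested (Ccl8, Cxcl1 and Cxcl2), un-wounded library 1 gave 12, and leaving out wounded libraries 1, 2 and 3 gave 18, 12 and 10.

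**Figure D3:**
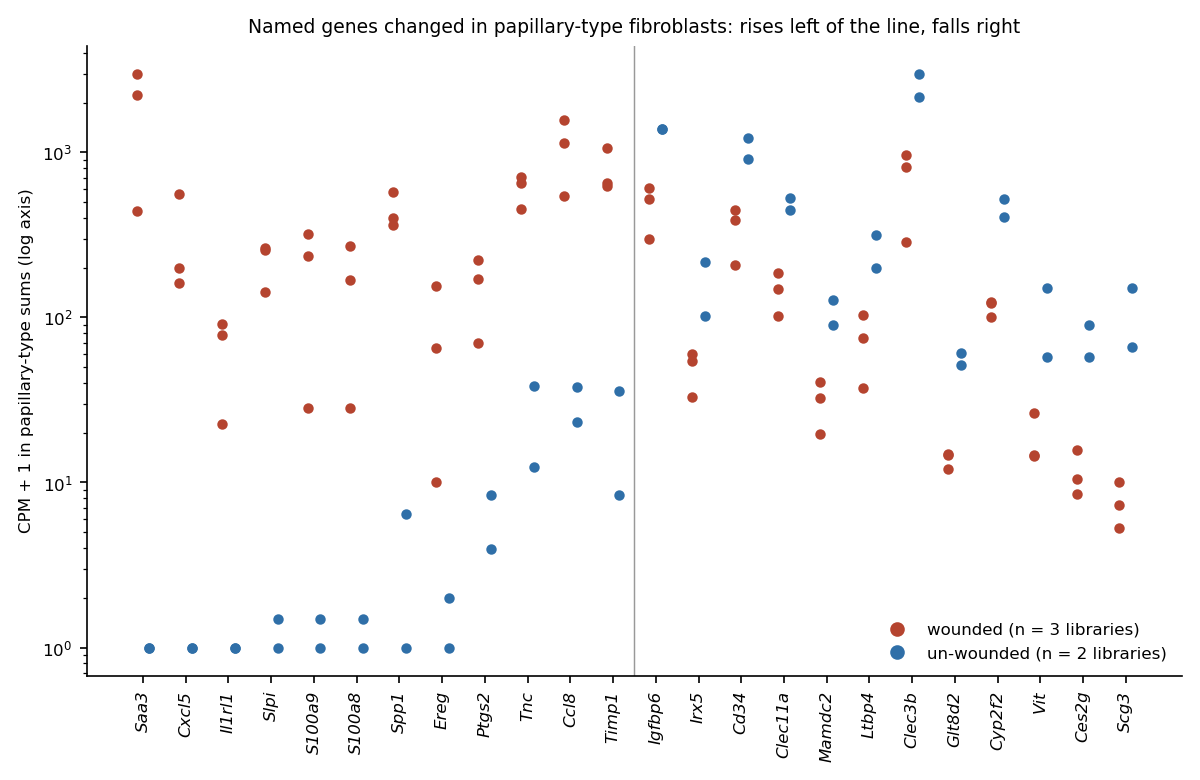
CPM + 1 in papillary-type fibroblasts (log axis) for the 12 named rises and 12 named falls, 1 point per library, wounded in red at the left of each pair and un-wounded in blue. The groups do not overlap for any gene shown, which the naming rule required, and Saa3, Cxcl5 and Il1rl1 lie at 0 CPM in both un-wounded libraries.

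Genes of the provisional wound matrix and its remodelling rose in 10 of 33 tested cases and fell in 0, of 38 listed (median log2 fold change 0.67). Those called were 30.3% of the genes tested, against 2.46% over all genes. Tnc was at 649.5, 450.5 and 712 CPM in wounded members against 37.2 and 11.4 CPM in un-wounded members (5.40 ± 0.49, adjusted p = 0.00017). Spp1 was at 578, 360.4 and 399 CPM in wounded against 0 and 5.45 CPM in un-wounded members (6.53 ± 0.47, adjusted p = 4.71e-05), but the top 2 cells per wounded library together held 76.8% of its wounded UMIs, and 11.3, 25.4 and 21.3% of wounded members held any. Timp1 (chrX:20870166-20874735, overlapped by Syn1 on the other strand), an inhibitor of matrix metalloproteases, was at 653, 623 and 1066 CPM in wounded against 7.45 and 34.7 CPM in un-wounded members (4.84 ± 0.49, adjusted p = 0.000442). Mmp9, P4ha3, Adamts4, Lrrc15, Serpine2, Adam12 and Plat also rose. The most abundant members of the list did not pass the test, with log2 fold changes of -0.69 for Dcn, -0.42 for Lum and -0.31 for Serpinh1 (adjusted p = 0.48, 0.627 and 0.729). In members without leukocyte UMIs, 2 of 29 were called, Timp1 and Adamts4, while Tnc and Spp1 had log2 fold changes of 5.02 and 6.03 (adjusted p = 0.0749 and 0.198). With un-wounded library 2 left out, 3 of 34 were called (Tnc, Spp1 and Timp1), and with wounded libraries 1, 2 or 3 left out 14, 8 or 7 rose.

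Collagen XII, VI and XXVII chains rose. Of 21 listed collagens outside the rule, 16 were tested, and Col12a1, Col27a1 and Col6a3 rose, 18.8% of those tested against 2.46% called over all genes. Col12a1, a collagen bound to fibril surfaces, was at 129.7, 117 and 219.9 CPM in wounded and 7.45 and 12.9 CPM in un-wounded members (3.78 ± 0.46, adjusted p = 0.00119). Col6a1 and Col6a2, chains of the same microfibrillar collagen as Col6a3, had log2 fold changes of 0.18 and 0.27 (adjusted p = 0.859 and 0.742). Of 24 basement membrane and microfibril genes, 21 were tested, Fbn2 and Fbln2 rose and Mfap5 fell (14.3% called). None of Col12a1, Col6a3, Fbln2 and Mfap5 was called in members without leukocyte UMIs or with un-wounded library 2 left out.

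Contractile genes rose in 4 of 17 tested cases (23.5%, against 2.46% called over all genes) and fell in 0, of 18 listed (median 0.72). Acta2, the smooth muscle actin of myofibroblasts, was at 175, 136 and 190.4 CPM in wounded and at 7.45 and 3.96 CPM in un-wounded members (5.35 ± 0.44, adjusted p = 6.99e-05). Wounded barcodes that failed the collagen gate held 660.1 CPM of it. Tagln, Actn1 and Tpm2 rose with log2 fold changes of 3.63, 2.22 and 1.76. In members without leukocyte UMIs 0 of 17 were called, and Acta2 had a log2 fold change of 3.95 (adjusted p = 0.0659), while without un-wounded library 2 Acta2 alone was called. Myofibroblast genes were found here in cells chosen to have little Cthrc1, a collagen-modifying protein of wound fibroblasts. Without the limit on Cthrc1, 821 genes were called.

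Cell cycle genes rose in 7 of 13 tested cases (53.8%, against 2.46% called over all genes) and fell in 0, of 18 listed (median 3.02). Stmn1, a microtubule regulator, was at 163, 41.1 and 64.4 CPM in wounded and 14.9 and 10.9 CPM in un-wounded members (3.02 ± 0.59, adjusted p = 0.0193). Birc5, which encodes survivin, was at 71.7, 15.8 and 43.4 CPM in wounded and 7.45 and 1.98 CPM in un-wounded members (4.22 ± 0.76, adjusted p = 0.0113). Ccna2, Ube2c, Ccnb1, Ccnb2 and Hmgb2 rose as well. UMIs of at least 2 of the 18 genes were found in 45.4, 38.8 and 37.4% of wounded members and in 12.5 and 20.2% of un-wounded members. With cells thinned to 2000 UMIs the shares were 9.28, 5.97 and 9.68% in wounded and 4.35 and 1.76% in un-wounded members. The groups still did not overlap, but the 4.35% of un-wounded library 1 was 1 of 23 cells and the 5.97% of wounded library 2 was 4 of 67. In other gated fibroblasts the thinned shares were 3.83, 2.67 and 3.00% in wounded and 4.41 and 2.22% in un-wounded libraries, which overlapped. In members without leukocyte UMIs only 5 of the genes were tested and Stmn1 was called. With un-wounded library 2 left out 0 of 16 were called, and with wounded libraries 1, 2 or 3 left out 6 of 8, 11 of 18 or 4 of 6 rose.

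Stromal surface and secreted proteins were among the 32 falls. Clec3b was at 814, 964 and 286 CPM in wounded and at 2979 and 2173 CPM in un-wounded members (-1.82 ± 0.41, adjusted p = 0.0374). Cd34, a sialomucin of stromal progenitors, was at 445, 390.4 and 206 CPM in wounded against 1221 and 907 CPM in un-wounded members (-1.53 ± 0.31, adjusted p = 0.024). Igfbp6, which binds insulin-like growth factor 2, was at 519.9, 604 and 297 CPM in wounded against 1385 and 1384 CPM in un-wounded members (-1.47 ± 0.31, adjusted p = 0.0266). In each gene every wounded library was below every un-wounded library, which the rule for naming genes required.

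Scg3, a secretogranin of secretory granules, had the largest named fall, to 9.10, 6.32 and 4.29 CPM in wounded against 149 and 65.4 CPM in un-wounded members (-3.75 ± 0.44, adjusted p = 0.00102). Cyp2f2 was at 123, 122 and 100.3 CPM in wounded and 521 and 406 CPM in un-wounded members (-1.90 ± 0.24, adjusted p = 0.0014). Ltbp4, which stores latent TGF-beta in the matrix, was at 73.9, 103 and 36.5 CPM in wounded against 313 and 199 CPM in un-wounded members (-1.74 ± 0.37, adjusted p = 0.028). Irx5, a homeobox factor, fell too (-1.48, adjusted p = 0.0475), as did Ces2g, Vit, Glt8d2, Mamdc2 and Clec11a, with log2 fold changes between -2.59 and -1.66. Leaving out wounded library 3 left 5 of the 12 named falls called, and all 11 named rises that were then tested. Leaving out un-wounded library 1 left 7 of the 12 falls called, all except Clec3b, Ltbp4, Cd34, Irx5 and Igfbp6, and leaving out un-wounded library 2 left Scg3 and Cyp2f2, with 5 of the 12 named rises (Timp1, Ccl8, Tnc, Spp1 and Slpi). Leaving out wounded library 2 left 9, all except Clec3b, Cd34 and Irx5. In members without leukocyte UMIs 3 were called (Scg3, Ces2g and Cyp2f2). With Crabp1 left out of the marker rule, a choice made after the data were seen that drops un-wounded library 1, 0 of the 12 falls and 9 of the 12 rises were called, and Scg3, Cyp2f2 and Clec3b had log2 fold changes of -2.82, -1.43 and -1.17 (adjusted p = 0.283, 0.173 and 0.494).

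WNT-linked genes include those by which the class is known. Of 39 listed, 25 were tested, Sfrp2 and Dkk3 rose (8.0%, against 2.46% called over all genes), and 0 fell (median -0.33). Sfrp2, a secreted frizzled-related protein, was at 108, 106 and 179 CPM in wounded and 7.45 and 7.93 CPM in un-wounded members (4.15 ± 0.47, adjusted p = 0.000747). Wnt5a had 127, 93.3 and 56.3 CPM in wounded against 290 and 184 CPM in un-wounded members, and Rspo1, with the values above, a similar difference, with log2 fold changes of -1.23 and -1.10 (adjusted p = 0.0703 and 0.0684). In the papillary list 12 of 14 genes were tested and 8.33% were called. Pdpn, which encodes podoplanin, rose to 453, 338 and 424 CPM in wounded against 216 and 164 CPM in un-wounded members (1.24 ± 0.28, adjusted p = 0.0372), and 0 fell. Of 19 retinoid genes 12 were tested and 16.7% were called. The retinol-binding protein Rbp4 was among those that rose, and Cyp26b1, which degrades retinoic acid, had a log2 fold change of 0.43 (adjusted p = 0.662). Of Sfrp2, Dkk3, Pdpn and Rbp4, none was called with un-wounded library 2 left out, and Sfrp2 alone with wounded library 3 left out or in members without leukocyte UMIs.

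Several lists had no called gene. Over all genes only 2.46% were called, so 0 calls in lists of this length lies near that share. Of 20 dissociation and immediate early genes, 11 MHC class I genes, 9 complement genes, 19 genes of glycolysis and hypoxia and 7 dermal papilla genes tested, 0 were called by edgeR's quasi-likelihood test. At an unadjusted p under 0.05 the numbers were 6, 1, 4, 11 and 2 in that order, and DESeq2 called 1 gene lower in the first list and 1 higher in the glycolysis list. The glycolysis and hypoxia list had a median log2 fold change of 0.89 with 17 of 19 genes above 0, and 5 of 20 were called higher with wounded library 1 left out. Fos, the most abundant of the first list, was at 3103, 3427 and 2308 CPM in wounded against 5198 and 5674 CPM in un-wounded members (log2 fold change -0.79, adjusted p = 0.263). Gapdh and Pkm of glycolysis had log2 fold changes of 1.04 and 1.06 (adjusted p = 0.166 and 0.0617). Ifi27l2a of the type I interferon list and Hmox1 of the oxidative stress list rose, as did Fabp4 and Lpl, 2 of 3 tested genes of the adipocyte lineage. In the fascia list of 10 tested genes, Cd34 and Dpp4 fell and Plac8 rose (30.0% called). Ifi27l2a, Hmox1, Fabp4, Lpl and Plac8 were not called in members without leukocyte UMIs. Members of a list named beyond its 3 most abundant tested genes were chosen after their values were seen.

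Growth factor and TGF-beta genes changed singly. Of 28 growth factors, receptors and binding proteins 19 were tested, 3 rose and 1 fell (21.1% called, against 2.46% over all genes, median 0.44). Angptl4, a secreted inhibitor of lipoprotein lipase, was at 89.9, 74.3 and 77.2 CPM in wounded and 0 and 5.45 CPM in un-wounded members (4.07 ± 0.43, adjusted p = 0.000545), and it was called in members without leukocyte UMIs. H19, an imprinted RNA, and Ereg were the other rises, and Igfbp6 the fall. With un-wounded library 2 left out 0 of 21 tested genes of the list were called. Of 29 TGF-beta and BMP genes 27 were tested, Inhba rose and Ltbp4 fell (7.41% called). Inhba was at 64.8, 79.0 and 168 CPM in wounded and 29.8 and 27.2 CPM in un-wounded members (2.06 ± 0.49, adjusted p = 0.0484), a call lost when any library other than wounded library 1 was left out. Among smaller chemokine rises, Ccl7 was at 1697, 1217 and 1385 CPM in wounded against 581 and 641 CPM in un-wounded members (1.32 ± 0.29, adjusted p = 0.036), and Ccl11, an eosinophil chemokine, at 606, 386 and 444 CPM against 223 and 217 CPM (1.21 ± 0.28, adjusted p = 0.041). Ptx3, a soluble pattern recognition protein, was at 47.8, 68.0 and 171 CPM in wounded and 0 and 12.9 CPM in un-wounded members (3.23 ± 0.68, adjusted p = 0.0291).

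**Figure D4:**
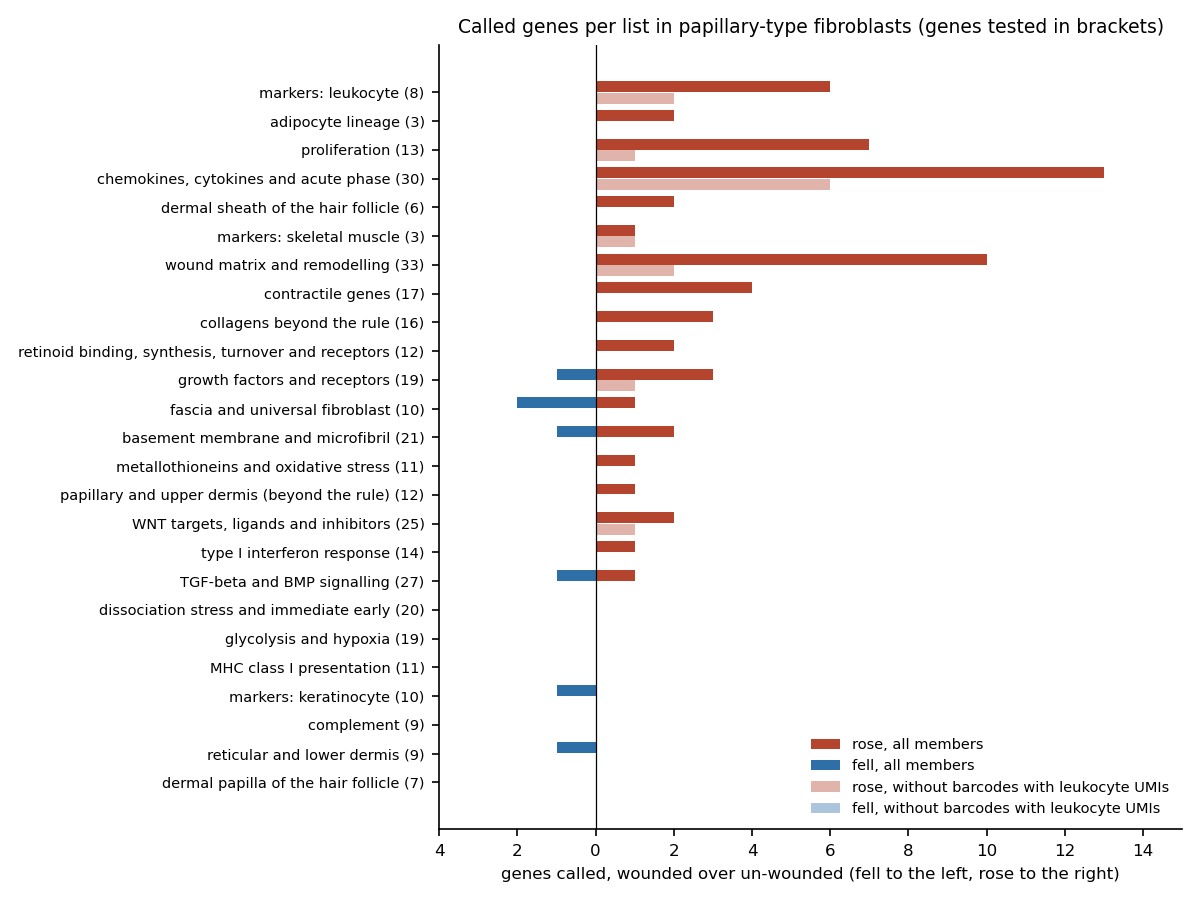
Number of genes called per list in papillary-type fibroblasts, wounded over un-wounded, for lists with at least 3 genes tested (number tested in brackets). Dark bars use all members and pale bars leave out barcodes with leukocyte UMIs, where the chemokine list has 6 rises instead of 13 and the leukocyte list 2 instead of 6.

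Leukocyte markers moved with the wound response. Of 12 listed, 8 were tested, 6 rose and 0 fell (75.0% called, against 2.46% over all genes, median 3.35). Cd74 was at 279, 866 and 809 CPM in wounded and 141 and 63.9 CPM in un-wounded members (3.01 ± 0.55, adjusted p = 0.0143). S100a8 and S100a9, neutrophil proteins that stressed skin cells also make, rose with log2 fold changes of 8.21 and 8.52 (adjusted p = 0.00913 and 0.00976). Wounded barcodes that failed the collagen gate held 440 and 528 CPM of them, above the members' means of 155 and 193 CPM. The top 2 cells per wounded library together held 68.6 and 63.7% of their wounded UMIs. The summed level of the list was 581, 2158 and 2209 CPM in wounded members and 194 and 148 CPM in un-wounded members. In other gated fibroblasts it was 678, 1415 and 1575 CPM in wounded and 549.6 and 347 CPM in un-wounded libraries. At 0 in members of un-wounded library 1 were 8 of the 12, Ptprc and Tyrobp among them, and none was at 0 in the other libraries. UMIs of at least 2 of the 12 genes were found in 41.2, 92.5 and 91.6% of wounded members and in 12.5 and 21.9% of un-wounded members. At 2000 UMIs per cell the shares were 8.25, 32.8 and 29.0% in wounded and 4.35 and 3.08% in un-wounded members. Without barcodes with leukocyte UMIs, Cd74 had a log2 fold change of 0.24 (adjusted p = 0.962) and H2-Aa 1.51 (adjusted p = 0.257), while Timp1, Ccl8, Cxcl12 and Saa3 had 4.48, 5.78, 4.01 and 12.79 (adjusted p = 0.0199, 0.000362, 0.0167 and 0.0193). Keratinocyte markers summed to 3110.1, 152 and 349 CPM in wounded and 4781 and 2511 CPM in un-wounded members, and Dsp of that list fell, 1 of 10 tested (median -1.19). With wounded library 1 left out 9 of 10 fell, with a median of -3.35. Acta1 of the skeletal muscle list rose to 31.9, 23.7 and 36.5 CPM in wounded against 7.45 and 3.47 CPM in un-wounded members (3.10, adjusted p = 0.00787), 1 of 3 tested. Neither of the 2 pericyte markers tested was called, and endothelial and Schwann or melanocyte markers had no gene above the filter. The part of keratinocyte RNA in the falls was not tested.

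The wound effect in members was then compared with that in other gated fibroblasts of the same libraries, by an interaction term with library as a block. It differed in 126 of 10383 genes (1.21%), of which 55 (0.53%) had the higher effect in members and 71 (0.684%) the lower one. Timp1, Cxcl12 and Ccl8 rose in members by more than in other gated fibroblasts, and their un-wounded levels were lower in members than in other gated fibroblasts. Cxcl12 (chr6:117168535-117181367) was at 374, 341 and 981 CPM in wounded and 0 and 39.6 CPM in un-wounded members, against 422, 336 and 829.7 CPM in wounded and 80.4 and 167 CPM in un-wounded other gated fibroblasts (difference of log2 fold changes 2.22 ± 0.25, adjusted p = 1.11e-06). In wounded libraries the classes stood at similar levels, and in both un-wounded libraries members were lower. Timp1 was at 201, 214 and 604 CPM in wounded and 53.8 and 54.6 CPM in un-wounded other gated fibroblasts (difference 2.15 ± 0.28, adjusted p = 9.38e-06), with the members' values given above. Ccl8 was at 496, 623 and 1319 CPM in wounded and 116 and 98.3 CPM in un-wounded other gated fibroblasts (difference 1.95 ± 0.30, adjusted p = 0.000172).

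Col14a1 (chr15:55307750-55520803), a collagen that organises fibrils, went the other way. It was at 21.6, 22.1 and 27.4 CPM in wounded and 37.2 and 62.9 CPM in un-wounded members, against 119.5, 104 and 103 CPM in wounded and 44.9 and 38.5 CPM in un-wounded other gated fibroblasts (difference -2.70 ± 0.28, adjusted p = 1.96e-07). Thbs1, the matrix protein thrombospondin 1, was at 123, 164 and 238 CPM in wounded and 22.3 and 102 CPM in un-wounded members, against 143, 295 and 285 CPM in wounded and 24.3 and 37.5 CPM in un-wounded other gated fibroblasts (difference -1.71 ± 0.25, adjusted p = 6.64e-05). In the list of 24 basement membrane and microfibril genes 21 were tested, 1 had the higher effect in members (Fbln2) and 4 the lower one (Nid1, Lama2, Efemp1 and Mfap5). In the collagen list 19 were tested, 1 had the higher effect (Col12a1) and 3 the lower one (Col14a1, Col4a1 and Col4a2). Over all genes tested 0.53% had the higher and 0.684% the lower effect in members. The differences were -1.04 for Nid1, -1.07 for Lama2, -0.89 for Col4a1 and -0.93 for Col4a2 (adjusted p = 0.00561, 0.0107, 0.00814 and 0.00972). Col4a1, a chain of the network collagen of basement membranes, was at 207, 237 and 143 CPM in wounded and 238 and 249 CPM in un-wounded members, against 202, 221 and 159.6 CPM in wounded and 98.2 and 147 CPM in un-wounded other gated fibroblasts.

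In the reticular list 0 of 11 tested genes had the higher effect in members and 4 the lower one (Mgp, Ly6a, Meox2 and Mfap5). For this list and those below, the shares over all genes tested were 0.53% higher and 0.684% lower. Mfap5, a microfibril protein, was at 321, 228 and 219 CPM in wounded and 812 and 543 CPM in un-wounded members, against 651, 359 and 444 CPM in wounded and 529 and 412 CPM in un-wounded other gated fibroblasts (difference -1.36 ± 0.17, adjusted p = 4.74e-06). It thus fell in members while the groups overlapped in other gated fibroblasts. Of 18 tested cell cycle genes 3 had the higher effect in members (Tyms, Hmgb2 and Stmn1). Hmgb2, a chromatin protein of dividing cells, was at 147, 99.6 and 96.5 CPM in wounded and 37.2 and 40.1 CPM in un-wounded members, against 59.6, 44.9 and 60.0 CPM in wounded and 59.4 and 43.9 CPM in un-wounded other gated fibroblasts (difference 1.24 ± 0.25, adjusted p = 0.00556). Gapdh and Pkm, of 21 glycolysis and hypoxia genes tested, had differences of 0.76 and 0.89 (adjusted p = 0.0125 and 0.00657). Of the 32 WNT-linked genes tested 0 had the higher effect and 1 the lower one, Wif1, a secreted WNT inhibitor. The calls of Hmgb2, Tyms, Gapdh, Pkm and Stmn1 were lost when un-wounded library 2 was left out and when the limit on Cthrc1 was dropped from both classes.

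Among other genes, Fcgr2b, an inhibitory Fc receptor, was at 179, 63.2 and 112 CPM in wounded and 7.45 and 5.45 CPM in un-wounded members, against 10.2, 8.02 and 23.2 CPM in wounded and 2.81 and 4.95 CPM in un-wounded other gated fibroblasts (difference 2.87 ± 0.58, adjusted p = 0.00561). Pdpn and Fbln2 had differences of 0.84 and 0.89 (adjusted p = 0.03 and 0.0043). Cd74 and H2-Aa, the MHC class II genes of the leukocyte list, had differences of 2.23 and 2.26. In cells without leukocyte UMIs these were -0.42 and 0.24 (adjusted p = 1 for both), while 9 of the 10 largest named differences were still called, all except Col12a1. Without un-wounded library 2, 13 genes were called in all, and of the 10 named differences only that of Cxcl12 (adjusted p = 0.0316). Without un-wounded library 1, 76 genes were called, all 10 named among them. With Crabp1 left out of the marker rule 4 of the 10 were called, and Ccl8, Col12a1, Fcgr2b, Scg3, Thbs1 and Timp1 were not.

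**Figure D5:**
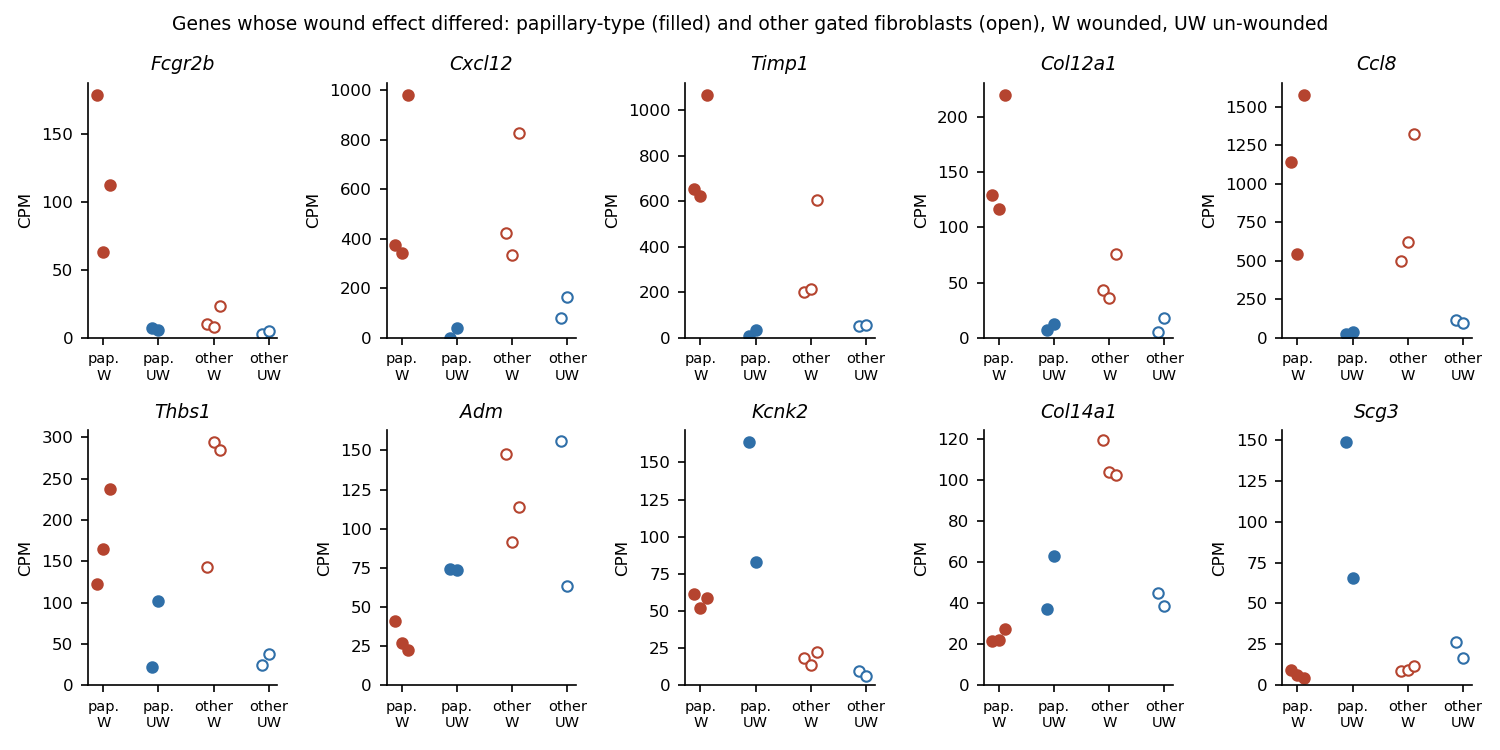
CPM by library of the 10 genes named for a wound effect that differed between papillary-type (pap., filled points) and other gated fibroblasts (other, open points), W wounded and UW un-wounded. Col14a1 is at 103 to 119.5 CPM in wounded other gated fibroblasts and at 21.6 to 27.4 CPM in wounded members.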

How the data were processed

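Single-cell RNA was measured in 5 libraries. Each library was deposited by the authors as a matrix of raw UMI counts, made with Cell Ranger 1.3.1 on mm10 per the submitters' processing notes. The annotation and any barcode filter are not given in the sources used here. Deposited barcodes numbered 7578, 4698 and 4152 in wounded and 5372 and 5517 in un-wounded libraries, with total counts of 59621412, 33537809 and 41654423 and of 33642571 and 41041406 UMIs. Members, gene lists and tests were chosen with earlier results of these data known.

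UMIs of members were summed per library. They were tested, wounded over un-wounded, with edgeR 4.0.16 in R 4.3.3 (filterByExpr, TMM, quasi-likelihood F-test, Benjamini-Hochberg over all genes tested). The interaction fit used 10 sums, members and other gated fibroblasts of each library. Genes of the membership rule stayed in the fits and are only described. CPM are plain, and log2 fold changes carry TMM scaling. Named genes had to pass the test with a log2 fold change of 1 or more in size, reach 50 CPM in the higher group, show separate groups, and have a level at least 33.3% of that of barcodes failing the collagen gate. The 12 largest rises and falls, the 5 largest interactions each way, 10 genes each way against other gated fibroblasts, the marker genes and the 3 most abundant tested genes of each list were named. Barcodes were thinned to 2000 UMIs without replacement where stated. Shares were tested by exact permutation over 10 assignments of libraries.

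On simulated data with 200 genes changed, the wound test recovered 81.5% of 4-fold and 17.2% of 2-fold changes, with 5 of 96 calls false among 6933 genes, and the interaction test 74.2 and 31.6%, with 8 of 111 false among 10041 genes. Counts were drawn with the fitted trend of dispersion and 1 mean rate per gene in each class. Spread particular to a gene or a library was not simulated, so these rates may be too favourable. Replicate libraries differed by more than sampling noise (chi-square of their counts per degree of freedom 3.18 to 13.7). Alternatives were DESeq2 1.42.0, no filter, no TMM, a replicate block, other gates, removal of doublets by Scrublet in scanpy 1.11.5 (34 of 571 members) or by markers of other cell types, sums without the 2 highest cells, and leaving out each library. Leaving Crabp1 out of the marker rule and leaving out barcodes with leukocyte UMIs were chosen after seeing the data. Doublets were kept in the main analysis. Gene positions come from GENCODE on GRCm38. Timp1, Col12a1, Col14a1, Fcgr2b, Thbs1, Kcnk2, Adm, Axin2, Cd34, Cyp2f2, Ereg and Glt8d2 overlap a gene on the other strand, and whether counting used strand is not given in the sources used here. Close relatives such as Cxcl1 and Cxcl2, or H2-D1 and H2-K1, may share reads. Some listed genes are not reported here.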

Additional observations from a re-analysis of the deposited data

Results flagged for a closer look

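Listed here are genes whose wound effect in papillary-type fibroblasts differed from that in other gated fibroblasts by the interaction test of edgeR. The difference of log2 fold changes was 2.87 for Fcgr2b, 2.22 for Cxcl12, 2.15 for Timp1, 2.05 for Col12a1 and 1.95 for Ccl8, where members had the higher effect. It was -2.83 for Scg3, -2.70 for Col14a1, -2.19 for Kcnk2, -1.95 for Adm and -1.71 for Thbs1, where members had the lower effect. Col12a1 was at 129.7, 117 and 219.9 CPM in wounded and 7.45 and 12.9 CPM in un-wounded members, against 42.9, 35.9 and 76.2 CPM in wounded and 5.61 and 18.2 CPM in un-wounded other gated fibroblasts. Kcnk2, a potassium channel, was at 61.4, 52.2 and 58.5 CPM in wounded and 164 and 83.2 CPM in un-wounded members, against 18.5, 13.7 and 22.2 CPM in wounded and 9.35 and 6.13 CPM in un-wounded other gated fibroblasts. Adm, the vasodilator peptide adrenomedullin, was at 41.0, 26.9 and 22.5 CPM in wounded and 74.5 and 73.3 CPM in un-wounded members, and at 148, 91.1 and 114 CPM in wounded and 156 and 63.0 CPM in un-wounded other gated fibroblasts, whose groups overlapped. Scg3 was at 8.56, 9.40 and 11.7 CPM in wounded and 26.7 and 16.7 CPM in un-wounded other gated fibroblasts. Without un-wounded library 2, 1 of these 10 differences was called (Cxcl12), and without un-wounded library 1 all 10 were.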

How the results depend on the processing

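The wounded minus un-wounded difference in share of kept barcodes (-0.18 percentage points) changed sign without the Cthrc1 limit (0.50), without doublets by markers (0.0022) and without barcodes with leukocyte UMIs (0.77), and ranged from -2.07 to 1.72 as each library was left out. The difference in share of gated fibroblasts (0.56) changed sign after thinning (-0.016), without doublets by markers (-3.14), with Crabp1 left out of the rule (-0.35) and without barcodes with leukocyte UMIs (-0.51), and ranged from -3.19 to 3.49. As a share of fibroblasts before the limits on Cthrc1 and on Cxcl13 and Thbs4, the difference was -1.79. The 180 wound calls became 615 with no filter on low counts, 821 without the Cthrc1 limit, 117 without the 2 highest cells of each gene, 43 without doublets by markers, 46 with Crabp1 left out and 32 without barcodes with leukocyte UMIs, and 10 to 459 as each library was left out. The 126 interaction calls became 42 with DESeq2, 56 without doublets by markers, 23 with Crabp1 left out and 53 without barcodes with leukocyte UMIs, and 13 to 165 as each library was left out. A lone un-wounded library is assumed to vary like the others. Without doublets by markers 1 wounded library was left, and Cd74, Krt17 and Krt1 reversed (-0.77, 2.24 and 2.10); with Crabp1 left out un-wounded library 1 dropped out, and Cxcl14 reversed (-2.27). The causes were not tested. DESeq2 called 133 genes, 118 of them among the 180. A replicate block gave 314 calls. Deviations from the group mean log CPM correlated at 0.157 and 0.136 between same-numbered libraries, 2 pairs that the labels tie by number only. Deviations of the 2 un-wounded libraries are opposite, so swapping them gave -0.157 with wounded library 1 and -0.136 with wounded library 2. A minimum of 3 marker genes and members chosen after thinning were not fitted for lack of cells in 3 libraries. Un-wounded library 1, with 24 members, limits the depth.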

Other observations

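Marker-rule genes were also found in fibroblasts that the Cthrc1 limit excludes. Of fibroblasts with at least 5 UMIs of Cthrc1 per 10000, 37 of 455 (8.13%), 20 of 154 (13.0%) and 46 of 335 (13.7%) held at least 2 of Apcdd1, Col23a1, Crabp1 and Axin2 in wounded libraries 1, 2 and 3. The cells with at least 2 of these genes had median depths of 15322, 22983.5 and 23682 UMIs. Un-wounded libraries 1 and 2 held 0 and 1 fibroblasts at that Cthrc1 level, none with 2 or more of the genes.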
